A study of Arabidopsis thaliana with 8 samples.

Results

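The 33 genes described here are transcripts that plants raise within minutes of touch, wounding, cold, elicitors or oxidative stress, measured in leaves of Arabidopsis thaliana that carried an algal oil-synthesis gene and in leaves of the wild type. They are calmodulin-like and cell wall touch genes (TCH and CML), early ERF, WRKY and ZAT transcription factors, ATL ubiquitin ligases, CBF cold factors, SZF zinc finger proteins and related genes, taken by locus from a table of 30361 features. All 33 were on the array, with 1 feature each, and none was removed by a filter. The DGTT2 group (labelled DGTT2_transgenic) was line 57, a single line carrying the Chlamydomonas diacylglycerol acyltransferase DGTT2, with 4 arrays, and the WT group (labelled Wild_Type) had 4 arrays. The promoter of the transgene is not given in the sources used here, and because only 1 line was used, the transgene and any other feature of that line cannot be told apart. The DGTT2 transcript itself was not analysed here. Both groups were soil-grown for 6 weeks, at 22 C, on days of 16 h light with nights of 8 h. Each array held RNA of 1 leaf sample, and the samples of a genotype were biologically independent per the labels. The series title places the line in a study of carbon passing into triacylglycerols at the cost of surface lipids.

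These genes are known as a first wave of the stress response. Touch, wounding or an elicitor opens calcium channels and starts MAP kinase cascades, calmodulin-like proteins bind the calcium, and preformed factors such as the CAMTA proteins then turn on genes for a second tier of regulators. Their transcripts are short-lived in leaves, so their levels can change within minutes of handling, and the CBF genes are in addition gated by the circadian clock.

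All values are log2 expression values as the authors deposited them, after RMA, and a difference is always DGTT2 minus WT on that scale. Array medians lay between 10.19 and 10.28. Each slide carried 2 arrays of either genotype, with positions 1 and 2 always held by WT and positions 3 and 4 by DGTT2. Genotype therefore cannot be told apart from place on the slide. The leaf markers RBCS1A, RBCS3B and LHCA1 had genotype means between 15.63 and 15.92, while LHCB1.1 was at 7.47 in DGTT2 and 6.75 in WT. Markers of root (CASP1, MYB36, RHD6 and COBL9) had genotype means between 4.82 and 7.25, and those of flower (AG, AP3, PI and AP1) between 5.54 and 6.91. CASP1 averaged 7.25 in DGTT2 and 6.42 in WT, with no overlap (adjusted p = 0.199, limma), and its part in the results was not tested. The median level of pseudogenes on these arrays was 5.95. The lowest single value among the 33 genes was 7.00.

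The largest differences between arrays in these genes lay within genotypes. Averaged over the 33 genes, the deviation from each gene's own mean over 8 arrays was 0.09, -0.05, 0.08 and 0.61 in DGTT2 replicates 1 to 4, against 0.01, 0.73, -0.63 and -0.84 in WT replicates 1 to 4. WT thus held both the highest array and both of the lowest, and DGTT2 replicate 4 lay close to the top. WT replicate 4 was below the gene's own mean in all 33 genes and WT replicate 3 in 29, while WT replicate 2 was below it in 2 and DGTT2 replicate 4 in 3. Of the 33 genes, 18 were highest in WT replicate 2, 13 in DGTT2 replicate 4 and 2 in WT replicate 3, and 19 were lowest in WT replicate 4 and 9 in WT replicate 3. Over all features WT replicate 2 was the highest array in 13.4% and WT replicate 4 the lowest in 12.6%. In whole leaves, fewer cells of a type and less RNA per cell cannot be told apart. WT replicates 2 and 4 were on the same slide, and WT replicate 3 on the other.

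**Figure D1:**
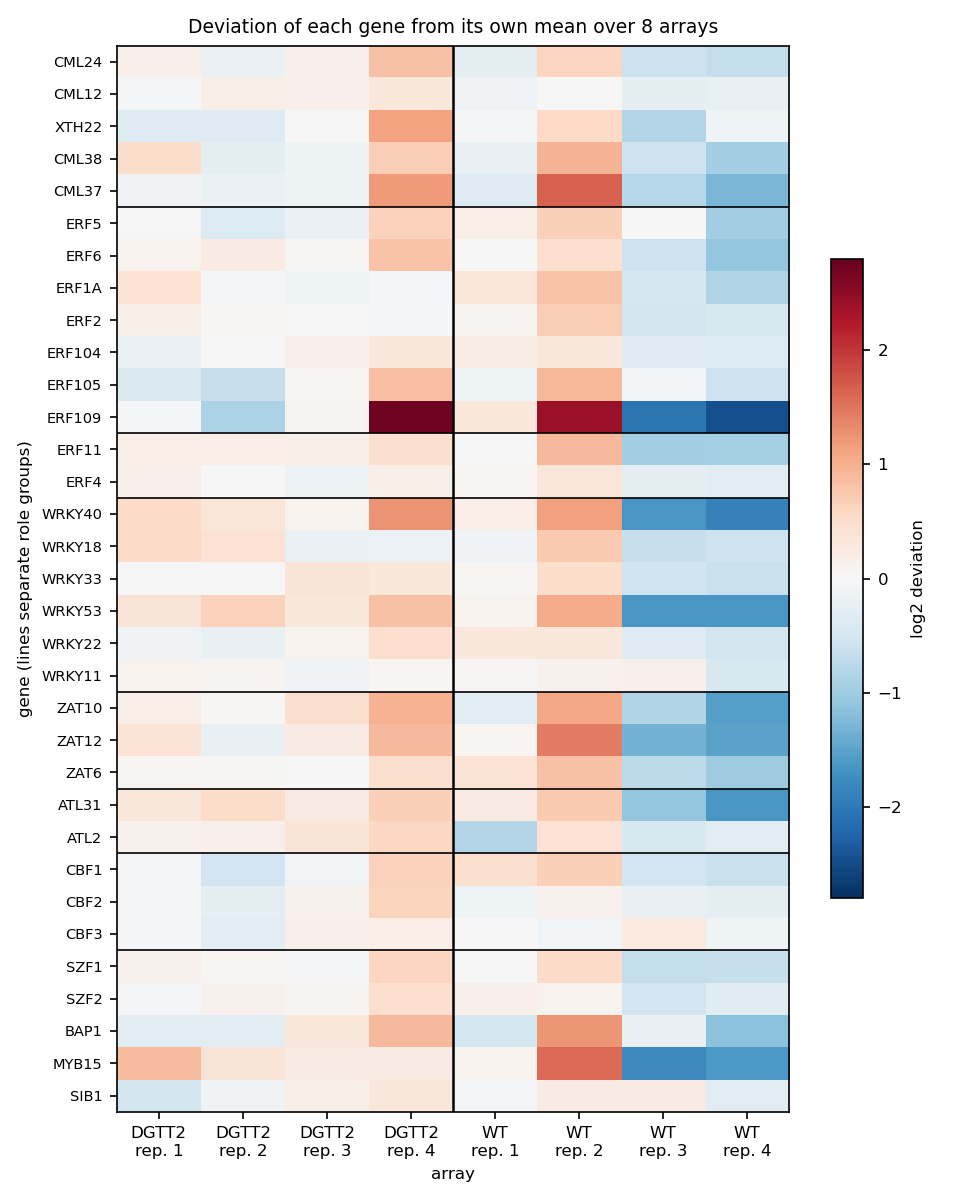
Deviation of each of the 33 genes (rows, grouped by role) from its own mean over the 8 arrays (columns, DGTT2 left and WT right), in log2 units, red above and blue below. Most rows are red in DGTT2 replicate 4 and WT replicate 2 and blue in WT replicates 3 and 4, with ERF109 the strongest and CBF3, WRKY11 and CML12 among the palest.

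Between the genotypes, 0 of the 33 genes were called changed by limma, at a smallest adjusted p of 0.393. Over all features 22 of 30361 were called, or 0.0725%. At an unadjusted p under 0.05 (limma) 2 of the 33 passed, or 6.06%, where 10.5% of all features did. Both were higher in DGTT2, as were 4.56% of all features at that p. In 0 of the 33 did the genotypes not overlap, where this held for 5.64% of all features. A higher mean in DGTT2 was found for 30 of the 33, against 49.7% of all features, with a median difference of 0.31 against 0.00 over all features. Since the 33 genes vary together from array to array, this count is a description and not 33 separate observations. The median difference was 0.17 without WT replicate 4, 0.17 without DGTT2 replicate 4 and 0.59 without WT replicate 2. The range over the 4 WT arrays was wider than the genotype difference in 32 of the 33 genes, and in 91.7% of all features.

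**Figure D2:**
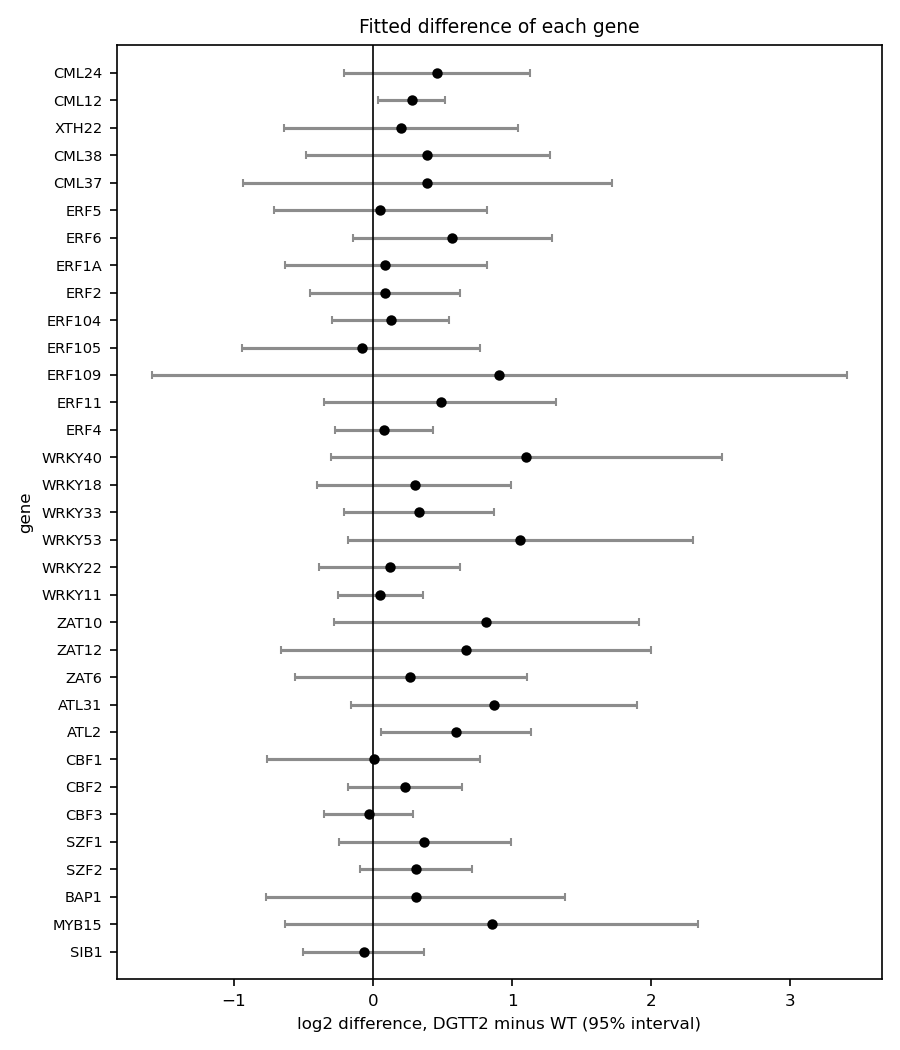
Difference between DGTT2 and WT for each gene (points) with its 95% interval from limma (bars), in log2 units, with the line at 0. Only the intervals of CML12 and ATL2 lie above 0, before adjustment, and that of ERF109 is the widest.

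Among the calcium-binding and cell wall touch genes all 5 had a higher mean in DGTT2, by 0.20 to 0.46, and 0 were called. CML12 (AT2G41100, known as TCH3), a calmodulin-like protein that was among the first touch-induced genes described, had 15.49, 15.69, 15.68 and 15.83 in DGTT2 replicates 1 to 4, against 15.44, 15.53, 15.27 and 15.33 in WT. The genotypes overlapped only between DGTT2 replicate 1 and WT replicate 2. Its difference of 0.28 (95% interval 0.04 to 0.52) had an unadjusted p of 0.0274 and an adjusted p of 0.393 (limma). It lay over 15 on every array, where signals may be compressed. CML24 (AT5G37770, TCH2), another calmodulin-like protein, was at 12.02, 11.69, 12.01 and 12.68 in DGTT2 and at 11.61, 12.46, 11.27 and 11.21 in WT, with a difference of 0.46 (SE 0.30). XTH22 (AT5G57560, TCH4), an enzyme that cuts and rejoins xyloglucan in the wall, was at 12.04, 12.03, 12.38 and 13.51 in DGTT2 and at 12.37, 12.96, 11.57 and 12.28 in WT. Its difference was 0.20 (SE 0.37), but -0.14 without DGTT2 replicate 4 and -0.04 without WT replicate 3. CML37 (AT5G42380) and CML38 (AT1G76650), calmodulin-like proteins induced by wounding, each differed by 0.39 (SE 0.59 for CML37 and 0.39 for CML38). CML37 ranged over 1.38 in DGTT2 and 2.91 in WT, and its difference was 0.03 when WT replicate 4 was left out.

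The 7 ERF factors of the activating type, which bind promoters of ethylene and defence genes, included the most variable gene of the set. ERF109 (AT4G34410, also RRTF1), a factor of the redox and wound response, was at 10.02, 9.19, 10.15 and 12.80 in DGTT2 replicates 1 to 4, against 10.38, 12.47, 8.03 and 7.62 in WT replicates 1 to 4. DGTT2 replicate 4 and WT replicate 2 stood far above the other 6 arrays, and WT replicates 3 and 4 were below all DGTT2 arrays. Its difference was 0.91 with a 95% interval from -1.59 to 3.41, and it was 0.16 when DGTT2 replicate 4 was left out, 0.25 or 0.38 when WT replicate 4 or 3 was, and 1.86 when WT replicate 2 was. ERF6 (AT4G17490), a MAP kinase substrate of the stress response, had 12.43, 12.56, 12.37 and 13.12 in DGTT2 and 12.35, 12.81, 11.76 and 11.25 in WT, a difference of 0.57 (SE 0.32). ERF105 (AT5G51190), linked to cold, was at 11.06, 10.82, 11.53 and 12.32 in DGTT2 and at 11.35, 12.41, 11.40 and 10.89 in WT, and was the only one of the 7 with a lower mean in DGTT2 (difference -0.08, SE 0.38). ERF5 (AT5G47230), ERF1A (AT4G17500), ERF2 (AT5G47220) and ERF104 (AT5G61600) differed by 0.05, 0.09, 0.09 and 0.13. Of the activating factors 6 of 7 had a higher mean in DGTT2 and 0 were called.

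Both ERF factors with a repressor motif had a higher mean in DGTT2 and neither was called. ERF11 (AT1G28370), which damps ethylene synthesis genes, was at 12.61, 12.62, 12.60 and 12.87 in DGTT2 and at 12.42, 13.35, 11.49 and 11.50 in WT. The 4 DGTT2 arrays fell within 0.28 of each other, while the WT arrays spread over 1.86 and lay on both sides of them. Its difference was 0.49 (SE 0.37, adjusted p = 0.725, limma). ERF4 (AT3G15210), a repressor of ethylene and abscisic acid responses, lay between 14.99 and 15.29 in DGTT2 and between 14.83 and 15.47 in WT (difference 0.08, SE 0.15). Its mean was over 15 in both genotypes, where signals may be compressed.

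The WRKY factors, which bind W-boxes of defence genes, held the 2 differences of the set that were 2-fold or more in mean, and 0 of 6 were called. WRKY40 (AT1G80840), a negative regulator of basal defence, was at 12.41, 12.22, 11.97 and 13.13 in DGTT2 replicates 1 to 4, against 12.06, 13.02, 10.25 and 9.99 in WT replicates 1 to 4. WT replicates 1 and 2 fell within the DGTT2 range and WT replicates 3 and 4 below it. Its difference was 1.1 (95% interval -0.30 to 2.51, adjusted p = 0.596, limma), and between 0.66 and 1.67 when single arrays were left out. WRKY53 (AT4G23810), a regulator of leaf senescence and defence, had 12.29, 12.58, 12.23 and 12.76 in DGTT2 and 12.03, 12.97, 10.30 and 10.31 in WT. WT replicate 2 was the highest array here and WT replicates 3 and 4 the lowest by far, and WT replicate 1 also lay below the DGTT2 range. Its difference was 1.06 (95% interval -0.18 to 2.30, adjusted p = 0.554, limma), and 0.69 without WT replicate 3.

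WRKY18 (AT4G31800), the closest partner of WRKY40 in the same subgroup, was at 12.37, 12.25, 11.65 and 11.68 in DGTT2 and at 11.75, 12.57, 11.19 and 11.26 in WT, a difference of 0.30 (SE 0.31). Within DGTT2 it was lower in replicates 3 and 4 than in 1 and 2, while WRKY40 was highest in replicate 4. WRKY33 (AT2G38470), which turns on camalexin synthesis, was at 14.82, 14.79, 15.16 and 15.09 in DGTT2 and at 14.83, 15.30, 14.25 and 14.18 in WT (difference 0.33, SE 0.24). WRKY22 (AT4G01250), of the flagellin response, differed by 0.12 (SE 0.23). WRKY11 (AT4G31550), a negative regulator of basal resistance, was at 14.27, 14.24, 14.07 and 14.22 in DGTT2 and at 14.21, 14.30, 14.31 and 13.75 in WT. It was flat but for WT replicate 4 (difference 0.05, SE 0.14).

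All 3 ZAT zinc finger factors had a higher mean in DGTT2 and 0 were called. ZAT12 (AT5G59820, RHL41), a factor of oxidative and light stress, was at 10.72, 10.14, 10.58 and 11.25 in DGTT2 and at 10.40, 11.77, 9.02 and 8.83 in WT. ZAT10 (AT1G27730, STZ), a repressor of stress responses, was at 13.34, 13.17, 13.60 and 14.11 in DGTT2 and at 12.83, 14.23, 12.30 and 11.60 in WT. In both genes WT replicate 2 was the highest of all arrays and WT replicate 4 the lowest. The difference of ZAT12 was 0.67 (SE 0.59), with 0.28 when WT replicate 4 was left out and 1.26 when WT replicate 2 was. That of ZAT10 was 0.81 (SE 0.48), with 0.44 and 1.31 when the same arrays were left out. ZAT6 (AT5G04340), of phosphate and cadmium stress, was at 12.56, 12.55, 12.52 and 12.97 in DGTT2 and at 12.90, 13.33, 11.76 and 11.52 in WT, a difference of 0.27 (SE 0.37) that was -0.01 without WT replicate 4.

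The ATL ubiquitin ligases, membrane RING proteins, differed from each other in their pattern over arrays. ATL2 (AT3G16720), an early gene of the chitin response, was at 12.29, 12.31, 12.53 and 12.75 in DGTT2 and at 11.34, 12.57, 11.72 and 11.86 in WT. Here WT replicate 1 was the lowest array, and WT replicate 2 was the only WT array within the DGTT2 range. The difference was 0.60 (95% interval 0.06 to 1.14), with an unadjusted p of 0.0328 and an adjusted p of 0.416 (limma). ATL31 (AT5G27420, CNI1), of the carbon to nitrogen balance and of defence, was at 10.70, 10.90, 10.64 and 11.06 in DGTT2 and at 10.61, 11.13, 9.30 and 8.77 in WT. Its difference was 0.87 (SE 0.46), and 0.48 without WT replicate 4.

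The CBF cold factors, which switch on freezing tolerance genes, are encoded by 3 loci close together. CBF1 and CBF2 varied alike over the arrays, and CBF3 stood apart from CBF1. CBF1 (AT4G25490) was at 12.46, 11.96, 12.41 and 13.13 in DGTT2 and at 12.94, 13.16, 11.95 and 11.87 in WT, with a difference of 0.01 (SE 0.34). CBF2 (AT4G25470) was at 12.69, 12.46, 12.83 and 13.35 in DGTT2 and at 12.59, 12.84, 12.52 and 12.47 in WT, with a difference of 0.23 (SE 0.18). CBF3 (AT4G25480, DREB1A) was at 13.12, 12.87, 13.33 and 13.37 in DGTT2 and at 13.17, 13.10, 13.45 and 13.07 in WT, with a difference of -0.03 (SE 0.14). CBF1 followed the low values of WT replicates 3 and 4, while CBF3 was highest of all in WT replicate 3. The CBF genes are close in sequence, and how far their probes share signal was not tested. Of 9 genes that CBF factors are known to turn on, 2 had a higher mean in DGTT2 (49.7% of all features did) and 0 were called, with a median difference of -0.23. At an unadjusted p under 0.05 (limma) 2 of the 9 passed, where 10.5% of all features did. KIN2, a small hydrophilic cold protein, averaged 15.10 in DGTT2 and 15.36 in WT (difference -0.26, SE 0.11). KIN1, its relative, averaged 6.05 in DGTT2 and 6.60 in WT, near the pseudogene level (difference -0.54, SE 0.17, adjusted p = 0.28, limma), while COR15A and COR15B, chloroplast cold proteins, differed by -0.23 and -0.26. The means of KIN2, COR15A and COR15B were over 15 in both genotypes, where signals may be compressed.

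Of the remaining 5 quick genes 4 had a higher mean in DGTT2 and 0 were called. MYB15 (AT3G23250), a MYB factor of defence lignin and of cold, was at 9.68, 9.15, 9.03 and 9.02 in DGTT2 and at 8.89, 10.38, 7.00 and 7.18 in WT. WT replicates 3 and 4 were far below all DGTT2 arrays, WT replicate 1 slightly below them and WT replicate 2 above them. The difference of 0.86 had a 95% interval from -0.63 to 2.34, and it was 0.40 when WT replicate 3 was left out and 1.53 when WT replicate 2 was. SZF1 (AT3G55980) and SZF2 (AT2G40140, CZF1), CCCH zinc finger proteins of salt and elicitor responses, differed by 0.37 (SE 0.27) and 0.31 (SE 0.18). SZF1 was at 14.54, 14.46, 14.37 and 15.02 in DGTT2 and at 14.43, 14.95, 13.75 and 13.76 in WT. BAP1 (AT3G61190), a membrane-bound inhibitor of cell death, was at 10.38, 10.37, 10.99 and 11.58 in DGTT2 and at 10.19, 11.92, 10.48 and 9.52 in WT, a difference of 0.31 (SE 0.48). SIB1 (AT3G56710), a partner of WRKY33, was at 14.28, 14.69, 14.96 and 15.10 in DGTT2 and at 14.76, 15.01, 15.01 and 14.49 in WT. Its lowest array was DGTT2 replicate 1, and its difference was -0.06 (SE 0.19).

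**Figure D3:**
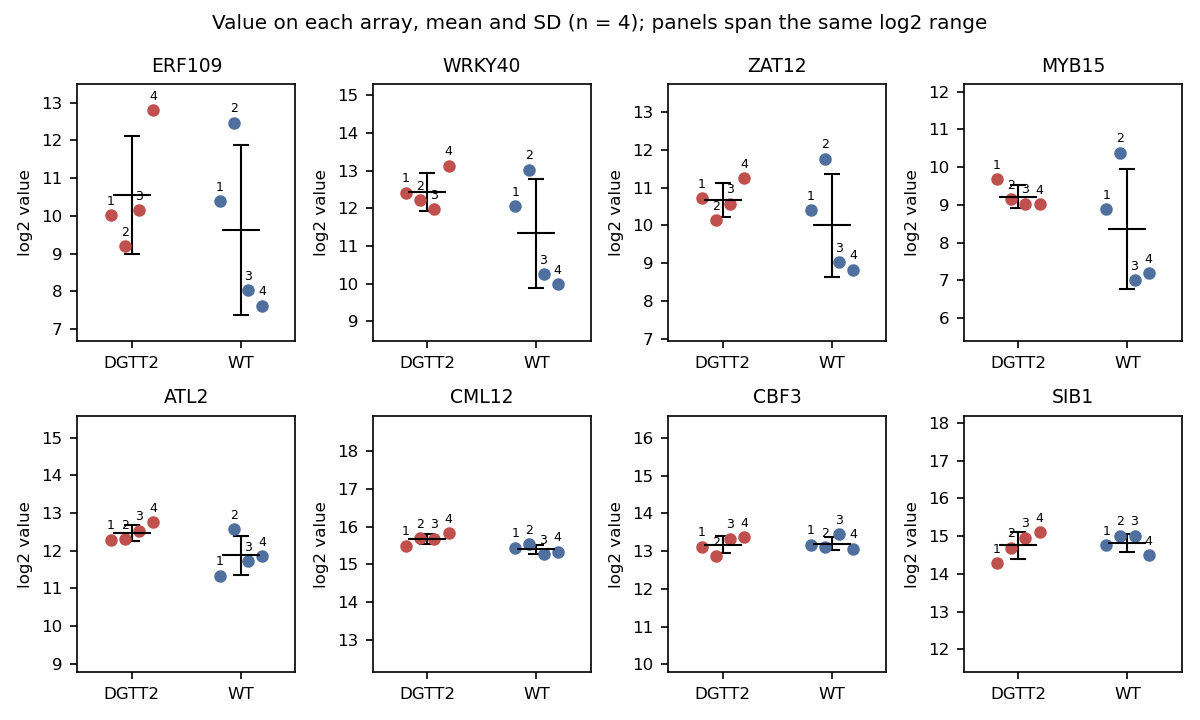
Log2 value on each array for 8 genes, with DGTT2 (red) left of WT (blue), numbers giving the replicate and bars the mean and SD over 4 arrays; every panel spans the same log2 range. ERF109, WRKY40, ZAT12, MYB15 and, over a much smaller range, CML12 show WT replicates 3 and 4 as the lowest arrays and WT replicate 2 as the highest of WT, while ATL2, CBF3 and SIB1 do not follow this order in full.

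The spread within genotypes was large for most of these genes. The median SD within a genotype (pooled over both) was 0.547 for the 33 genes and 0.197 for all features, and 19 of the 33, or 57.6%, were among the 5% of features with the highest SD. ERF109, with an SD of 1.94, ranked 4 among the 30361 features, and MYB15 (1.15), WRKY40 (1.09), CML37 (1.02), ZAT12 (1.02) and WRKY53 (0.95) followed it. CML12 (0.13), WRKY11 (0.20) and CBF3 (0.20) had the lowest SDs of the set. The SD was 0.311 at the median in DGTT2 and 0.637 in WT for the 33 genes, against 0.175 and 0.193 for all features. It was higher in WT for 27 of the 33, or 81.8%, and for 55.0% of all features. The 6 exceptions were CML12, XTH22, ERF105, CBF2, CBF3 and SIB1. The genes share the same 4 arrays per genotype, so these counts are not separate observations. The genes were also chosen with earlier results of these data known, so the contrast with all features is a description only. The median SD within a genotype was 0.42 when WT replicate 2 was left out, 0.57 when WT replicate 3 was and 0.50 when WT replicate 4 was.

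**Figure D4:**
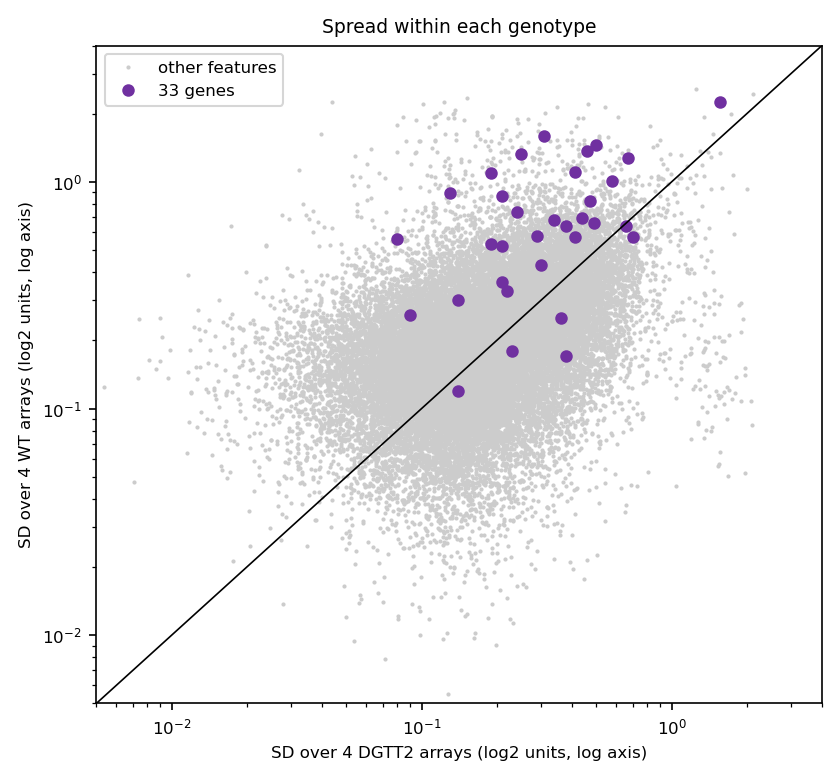
SD over the 4 DGTT2 arrays (x axis) against SD over the 4 WT arrays (y axis) for the 33 genes (purple) and the other features (grey), in log2 units on log axes, with the line of equal SD. Of the 33 genes 27 lie above the line.

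Covariation among single arrays was described with Pearson correlations over the 8 arrays after genotype means were removed, so that a genotype difference could not make it. Arrays are shared by all pairs, and genes are not independent replicates. Since the genes were chosen with earlier results of these data known, their likeness is a description and no test of the set. The median over the 528 pairs of the 33 genes was 0.77, with 115 pairs (21.8%) over 0.9 and 17 below 0. Without WT replicates 2 and 4, the 2 arrays farthest from the median of the 33-gene mean, the median was 0.61. For this the genotype means removed were still those over all 8 arrays, so the 2 arrays left out kept a part in the WT mean. Removing slide means as well gave 0.78. The most alike pairs were ERF2 with MYB15 (0.995), WRKY40 with ZAT6 (0.99) and ZAT6 with ATL31 (0.987), and the most opposed was WRKY18 with CBF3 (-0.585). CBF3 was in 14 of the 17 pairs below 0.

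Against the mean of the other 32 genes, 17 of the 33 had a correlation over 0.9, and ZAT12 (0.99), ZAT10 (0.98), SZF1 (0.98), ERF109 (0.97) and WRKY40 (0.97) were closest to it. Without WT replicates 2 and 4, but with the genotype means of all 8 arrays still removed, 11 of the 33 were over 0.9. CBF3 (0.02), SIB1 (0.46), WRKY11 (0.53), ATL2 (0.59) and WRKY18 (0.65) were the least alike. Over the 6 other arrays, with the same means removed, WRKY18 was at 0.01 and WRKY11 at -0.32. Of the 30328 other features 315, or 1.04%, correlated over 0.9 with the mean of the 33, and 147, or 0.485%, below -0.9. Neighbouring loci were not the most alike: ERF6 and ERF1A, with no locus between them in the RefSeq table, were at 0.81, ERF2 and ERF5 at 0.61, CBF2 and CBF3 at 0.545, and CBF3 and CBF1 at 0.201. CBF1 and CBF2, on either side of CBF3, were at 0.806.

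**Figure D5:**
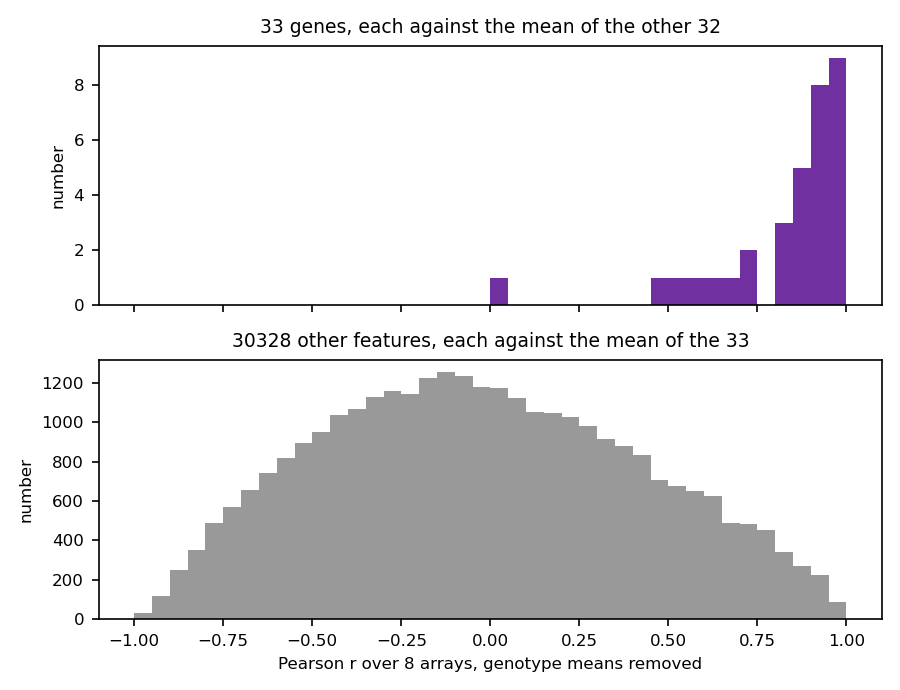
Number of features (y axis) by Pearson r over 8 arrays with genotype means removed (x axis), for the 33 genes against the mean of the other 32 (top) and for 30328 other features against the mean of the 33 (bottom). The upper values crowd near 1 with CBF3 alone near 0, and the lower ones spread over the whole range.

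Outside the set, the 10 features most like the 33-gene mean had correlations between 0.985 and 0.996. NAC090, a NAC factor, was at 9.42, 9.32, 9.44 and 10.51 in DGTT2 and at 9.23, 10.82, 7.96 and 7.24 in WT. AT3G01830 has no symbol in the RefSeq table but is CML40, a relative of the CML genes of the set. It was at 8.43, 7.76, 8.26 and 9.23 in DGTT2 and at 7.74, 9.87, 6.06 and 5.58 in WT. DIC2, a dicarboxylate carrier of mitochondria, was at 12.93, 12.68, 12.69 and 14.43 in DGTT2 and at 12.67, 14.23, 11.46 and 11.08 in WT. All 3 were highest in DGTT2 replicate 4 and WT replicate 2 and lowest in WT replicates 3 and 4. CML40 and DIC2 also belong to lists described below (CML and XTH relatives, and other quick response genes), so they are not separate from those lists. XIA, a myosin, also belonged to these features, as did RPP13, a resistance gene, and PDE334, a plastid ATP synthase subunit, which varied little (SD within genotypes 0.20 and 0.14). Among the 10 most opposed, with correlations between -0.988 and -0.969, MYB106, a factor of trichome branching and cuticle, had 11.15, 11.22, 11.00 and 10.84 in DGTT2 and 10.63, 9.93, 11.22 and 11.28 in WT. Within WT its array order was the reverse of that of the 33-gene mean, with WT replicate 2 lowest and WT replicate 4 highest. Within DGTT2, replicate 4 was its lowest array. CYCP1;1, a cyclin, IAMT1, which methylates auxin, and CTL2, a chitinase-like protein, were also in that group, with SDs of 0.20, 0.17 and 0.06.

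Of 90 other genes of the pathway, in 9 lists, 0 were called in either direction, where 0.0725% of all features were. An unadjusted p under 0.05 (limma) was reached by 9 of the 90, close to the share of 10.5% over all features. A higher mean in DGTT2 was found for 63, against 49.7% of all features, with a median difference of 0.14. The means of all 11 other quick response genes were higher in DGTT2, by 0.55 at the median, with 0 called. Their list followed the same arrays, with list means of 0.12, 0.05, 0.05 and 0.74 in DGTT2 and 0.10, 0.70, -0.75 and -1.01 in WT. This list, too, was chosen with earlier results of these data known, so its likeness is not separate support. HSFA4A, a heat stress factor, differed by 0.76 (SE 0.31), FRK1, a receptor-like kinase of the flagellin response, by 0.95 (SE 0.59), CYP81F2, of indole glucosinolates, by 0.64 (SE 0.29) and CAF1B, a deadenylase, by 0.25 (SE 0.20).

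The 21 genes of perception and MAP kinase signalling, which act upstream and are largely controlled as proteins, had list means between -0.09 and 0.06 on the 8 arrays, but these means average genes that went both ways. Single correlations with the 33-gene mean lay between -0.76 and 0.88, with 0 of 21 over 0.9, and the median SD within genotypes was 0.18. MKK9, a MAP kinase kinase named after its values were seen, had the highest SD of the list (0.43) and a correlation of 0.88. RBOHD, the oxidase of the reactive oxygen burst, was at 14.28, 14.24, 14.11 and 14.18 in DGTT2 and at 13.87, 14.13, 13.51 and 13.45 in WT. Its difference was 0.46 (SE 0.15, adjusted p = 0.318, limma), with overlap only between WT replicate 2 and DGTT2 replicate 3. MPK3, a stress MAP kinase, was at 15.27, 15.21, 14.83 and 15.08 in DGTT2 and at 14.69, 14.68, 14.94 and 14.55 in WT (difference 0.38, SE 0.13, adjusted p = 0.324, limma), where WT replicate 3 lay above DGTT2 replicate 3. MSL10, a mechanosensitive channel, and MKK4, a MAP kinase kinase, differed by 0.20 (SE 0.12) and 0.28 (SE 0.17).

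Among relatives of the 33 genes, members of the same families that were left out of the set, the lists had median differences of 0.18 for 9 CML and XTH genes, 0.48 for 5 ERF, 0.21 for 11 WRKY, 0.30 for 6 ZAT and AZF genes and 0.10 for 9 others. Correlations over 0.9 with the 33-gene mean were found for 2, 2, 1, 2 and 2 of them in this order. In ZAT11, a zinc finger factor, the genotypes did not overlap, which held for 5.64% of all features. It had 6.80, 6.76, 6.84 and 6.92 in DGTT2 and 6.40, 6.44, 6.70 and 6.15 in WT (adjusted p = 0.27, limma). These are low levels, not far above the pseudogene median of 5.95. XTH23 and XTH25, wall enzymes, differed by 0.46 (SE 0.18) and -0.32 (SE 0.13), and WRKY6, of senescence and phosphate supply, by 0.32 (SE 0.15). ERF13 and ORA47, factors of the jasmonate response, differed by 0.80 (SE 0.52) and 0.48 (SE 0.72), with SDs within genotypes of 0.91 and 1.26. The 9 early jasmonate genes had a median difference of 0.29 with 8 higher in mean in DGTT2, and 0 correlated over 0.9. Their list mean was 0.53, 0.12, -0.05 and -0.04 in DGTT2 and 0.04, 0.24, -0.32 and -0.52 in WT, so DGTT2 replicate 1 was highest and DGTT2 replicate 4 was not. JAZ10, a jasmonate repressor, differed by 0.57 (SE 0.29) and LOX4, a lipoxygenase, by 0.45 (SE 0.27).

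Markers of tissues and the clock were set beside these patterns. The means of the mesophyll, guard cell, trichome, phloem, root and flower lists lay between -0.38 and 0.33 on all arrays, against -0.84 to 0.73 for the 33 genes. Of these lists flower was lowest in WT replicate 4 (-0.38) and highest in DGTT2 replicate 1 (0.33). The guard cell and trichome means average genes that went both ways: MYB60 and GL3 differed by 0.57 and 0.69, HT1 and ETC2 by -0.26 and -0.10. Like CASP1, LHCB1.1 (difference 0.72), MYB60 and GL3 had no overlap between genotypes, as had 5.64% of all features. Their adjusted p was 0.249, 0.196 and 0.277 (limma). Morning genes of the clock averaged 0.20, 0.28, 0.24 and 0.16 in DGTT2 and -0.35, -0.35, -0.09 and -0.10 in WT. Of these 5 genes 0 were called and 4 had an unadjusted p under 0.05 (limma), against 10.5% of all features. In CCA1, PRR9 and RVE8 the genotypes did not overlap, with higher values in DGTT2, where 5.64% of all features did not overlap in either direction. PRR9 had the smallest adjusted p of the list (0.0945, limma). On average the morning genes were lowest in WT replicates 1 and 2, whereas the 33 genes were lowest in WT replicates 3 and 4. Correlations of the 5 morning genes with the 33-gene mean lay between -0.78 (LHY) and -0.08 (RVE8), with CCA1 at -0.59 and PRR9 at -0.68. Evening genes of the clock averaged -0.10, -0.14, 0.00 and -0.17 in DGTT2 and 0.15, 0.10, 0.10 and 0.05 in WT. Of these 6 genes 1 had a higher mean in DGTT2 and 0 were called, and their median correlation with the 33-gene mean was 0.13. In ELF4 and BOA the genotypes did not overlap, with lower values in DGTT2 (adjusted p = 0.28 and 0.2, limma). The part of the clock or of tissue makeup in the pattern was not tested.

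Most of these genes had a higher mean on slide 2, which held WT replicate 2 and DGTT2 replicate 4, and the mean was higher on slide 1 in 4 of the 33. The difference of slide 1 minus slide 2 was -0.88 for ERF109, -0.69 for CML37 and -0.61 for XTH22. With genotype and slide in one limma fit, 0 of the 33 were called between slide 1 and slide 2, where 0% of all features were called. At an unadjusted p under 0.05 (limma) 0 of the 33 passed, against 9.31% of all features. Within slide 1 the DGTT2 mean was higher in 27 of the 33 genes and within slide 2 in 30, with 25 higher in both. WRKY40 differed by 1.04 on slide 1 and 1.17 on slide 2, while MYB15 differed by 1.40 on slide 1 and 0.31 on slide 2.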

How the data were processed

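Leaf RNA was hybridised to 1-colour NimbleGen arrays, 8 in all. The authors deposited log2 values for 30361 features; RMA and Partek are named per the submitters' processing notes, without their settings, and no annotation build is named. Log2 was read from the values (4.20 to 15.99). RMA forces arrays to like distributions, no detection calls were used, and precision is limited by having 4 arrays per genotype.

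The deposited values went unchanged into lmFit and eBayes of limma 3.58.1 (R 4.3.3), with genotype as the only term and two-sided p-values, adjusted by the Benjamini-Hochberg method over all features, and called at an adjusted p under 0.05. Correlations are descriptions. The fit was tested on simulated data. Alternatives were other normalizations, a filter on dim features, slide or replicate number as a block (random block with statmod 1.5.0), other variance models and each array left out. Same-numbered arrays had correlations of -0.03 to 0.20, so the numbers were not taken as pairs.

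The genes and lists were chosen with earlier results of these data known. All 33 genes could be named, and of each other list the 4 of smallest p, plus the 10 features most alike and most opposed. RefSeq (TAIR10.1) named 29976 features and gave the symbol used here for 22 of the 33 genes; the others were kept by locus. Promoter motifs and protein identity were planned and not run, since no sequences were used here.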

Additional observations from a re-analysis of the deposited data

Results flagged for a closer look

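In 3 of 68 groups of 4 values (33 genes and their mean, in each genotype) 1 array stood apart from the others by the gap test of Dixon, where chance alone gives about 1 in 20. All 3 were DGTT2 replicate 4, at the high end: CML37 at 10.64, ERF11 at 12.87 and ZAT6 at 12.97. The share of 3 in 68 is not above that chance rate. The groups share arrays and the genes vary together, so these are not 3 separate observations.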

How the results depend on the processing

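Of the 33 genes 0 were called under any alternative fitted with limma, and of 627 recomputed differences 591 kept their direction. The count over all features, 22 as reported, was 13 with arrays centred on their medians, 69 with slide as a fixed block, 46 with a trended and robust variance, and 5 (without WT replicate 4) to 39 (without WT replicate 2) with 1 array left out. With the replicate block it was 3, and the block changed no call among the 33 genes. Genotypes did not overlap in 14 of the 33 genes on slide 1 alone and in 2 on slide 2 alone, with 2 arrays a genotype. With 1 array left out they did not overlap in 0 to 10, 10 being without WT replicate 2. Fewer arrays separate more easily by chance, and shares over all features are not given here for these smaller sets. These counts therefore cannot be read as a result about the genes. Leaving out single arrays gave 21 (without WT replicate 4) to 32 genes with a higher mean in DGTT2, a median pair correlation of 0.62 (without WT replicate 2) to 0.83, and a median SD of 0.42 (without WT replicate 2) to 0.59.

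Differences of small size turned. CBF1 was -0.03 with centred arrays, ERF105 0.08 and SIB1 0.01 with array weights. On slide 1 alone ERF5 was -0.18, WRKY11 -0.09 and CBF1 -0.02, and on slide 2 alone ERF1A was -0.02, ERF2 -0.12, CBF3 0.03 and SIB1 0.14. With 1 array left out, 13 genes turned at least once: XTH22 (-0.14 to 0.42), ERF5 (-0.26 to 0.28), ERF1A (-0.17 to 0.37), ERF2 (-0.06 to 0.34), ERF105 (-0.38 to 0.21), ERF4 (-0.01 to 0.21), WRKY22 (-0.03 to 0.25), WRKY11 (-0.08 to 0.11), ZAT6 (-0.01 to 0.59), CBF1 (-0.21 to 0.23), CBF3 (-0.10 to 0.07), BAP1 (-0.03 to 0.77) and SIB1 (-0.18 to 0.10). The cause was not tested. Intervals reached past a 2-fold higher level in DGTT2 for 16 of the 33 genes. Of these, ATL2 had an interval above 0 before adjustment (0.06 to 1.14), with an adjusted p of 0.416 (limma). For the others a difference of that size could not be told from none with 4 arrays a genotype.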
